A study of Arabidopsis thaliana with 18 samples.

Results

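Gibberellin 2-oxidases are enzymes that add a hydroxyl group at carbon 2 of gibberellins and so take the hormone out of use. The family was chosen by name, as the 7 Arabidopsis genes GA2OX1 (AT1G78440), GA2OX2 (AT1G30040), GA2OX3 (AT2G34555), GA2OX4 (AT1G47990), GA2OX6 (AT1G02400), GA2OX7 (AT1G50960) and GA2OX8 (AT4G21200), among 32833 genes in the count table. Reads of these genes were counted in seeds of Arabidopsis thaliana, ecotype Col-0, that were freshly harvested and sampled either dry or after 6 h of imbibition on wet filter paper. Wild-type Col-0 was set beside mkk3-1 and mpk7_ko3, lines that the labels give as knock-outs of the mitogen-activated protein kinase kinase MKK3 and of the mitogen-activated protein kinase MPK7. Each of the 6 groups held 3 libraries of total RNA from whole seeds, each mutant was represented by 1 line, and nothing in the labels says whether replicates came from separate plants or harvests, so p-values measure only the spread between these libraries.

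Seeds leave dormancy when active gibberellin builds up in the imbibed embryo, is bound by the GID1 receptors and leads to the breakdown of the DELLA repressors. Its level is set by GA20OX and GA3OX enzymes, which make it, and by enzymes such as the gibberellin 2-oxidases, which remove it. Most members of the family (GA2OX1, GA2OX2, GA2OX3, GA2OX4 and GA2OX6) act on the active hormone and its direct precursors, whereas GA2OX7 and GA2OX8 act on earlier precursors with a longer carbon skeleton. In Arabidopsis seeds, GA2OX2 is known as the member that is transcribed in the dark and repressed by red light through phytochrome, and GA2OX6 is known as a target of the embryo factor AGL15.

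In dry seeds the family consisted almost wholly of GA2OX2 and GA2OX6 transcripts. Both fell on imbibition in all 3 genotypes, GA2OX6 by 6.14-fold to 11.1-fold and GA2OX2 by 2.93-fold to 3.70-fold. GA2OX3, close to absent from dry seeds, rose in imbibed Col-0 seeds to 0.694 ± 0.292 CPM (counts scaled to a common library size, SD, n = 3). GA2OX4 and GA2OX8 were seen as a few scattered reads, and GA2OX1 and GA2OX7 had no read in any of the 18 libraries. No member passed the test between a mutant and Col-0 in either state.

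The 18 libraries held 18249333 to 21036275 counts each, of which the 7 members took 0.000991%. Dry and imbibed libraries were separated on the first principal component (78.9% of the variance). On the second (3.95%), replicate 3 of mpk7_ko3 was distant from its 2 companion libraries, dry as well as imbibed. Dry Col-0 libraries were spread there too (20.38, -13.05 and 4.91), and dry mkk3-1 replicate 2 (-7.65) stood apart from its companions (-29.02 and -30.03). MPK7 transcripts were lower in mpk7_ko3 than in Col-0 in both states (14.7 ± 0.455 against 41.3 ± 2.76 CPM dry and 12.9 ± 1.53 against 35.2 ± 2.56 CPM imbibed, SD, n = 3). MKK3 transcripts were lower in dry seeds labelled mkk3-1 (7.36 ± 0.341 against 17.4 ± 1.20 CPM), whereas the imbibed ones were not told from Col-0 (11.8 ± 1.29 against 13.3 ± 0.816 CPM, edgeR adjusted p = 0.307), so in imbibed seeds this transcript does not check the mkk3-1 label. All 5 markers of seed storage proteins and oil bodies were detected, at a summed 37500 to 61600 CPM in dry and 27200 to 43000 CPM in imbibed libraries.

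The 3 members with enough reads to be tested lie on chromosome 1 (GA2OX2, chr1:10537457-10540044, and GA2OX6, chr1:486800-489651, both on the + strand) and on chromosome 2 (GA2OX3, chr2:14556988-14558857, + strand), in TAIR10 coordinates. GA2OX2 and GA2OX6 each have 2 annotated protein-coding transcripts, of 3 exons and of 2 exons, and the gene counts merge them. Coding sequences of GA2OX2 and GA2OX3 were 76.1% identical and every other pair of members was between 51.8% and 64.5%. No stretch of 50 exon bases of any member recurred elsewhere in the nuclear genome, and no annotated gene overlapped a member. The 300 bases that end just before the annotated transcript start are shown for these 3 genes, the first 2 because they fell on imbibition and the third because it rose in Col-0, from RefSeq's TAIR10.1 assembly. Capitals mark matches to 1 of 4 motifs searched on both strands, namely the G-box CACGTG, the core ACGTG that the G-box contains, the RY core CATGCA and the CArG form, a CC and a GG with any 6 bases between them.
GA2OX2 (chr1:10537157-10537456, + strand): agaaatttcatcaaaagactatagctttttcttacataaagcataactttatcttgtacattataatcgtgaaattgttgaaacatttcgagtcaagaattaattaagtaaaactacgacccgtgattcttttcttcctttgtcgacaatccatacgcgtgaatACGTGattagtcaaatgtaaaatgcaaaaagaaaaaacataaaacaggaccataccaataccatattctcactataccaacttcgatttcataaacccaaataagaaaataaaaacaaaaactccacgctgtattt
GA2OX6 (chr1:486500-486799, + strand): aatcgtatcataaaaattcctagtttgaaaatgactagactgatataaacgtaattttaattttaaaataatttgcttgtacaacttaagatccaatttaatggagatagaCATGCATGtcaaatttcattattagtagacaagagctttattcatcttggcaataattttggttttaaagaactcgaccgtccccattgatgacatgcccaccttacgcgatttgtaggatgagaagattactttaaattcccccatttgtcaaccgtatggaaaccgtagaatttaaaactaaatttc
GA2OX3 (chr2:14556688-14556987, + strand): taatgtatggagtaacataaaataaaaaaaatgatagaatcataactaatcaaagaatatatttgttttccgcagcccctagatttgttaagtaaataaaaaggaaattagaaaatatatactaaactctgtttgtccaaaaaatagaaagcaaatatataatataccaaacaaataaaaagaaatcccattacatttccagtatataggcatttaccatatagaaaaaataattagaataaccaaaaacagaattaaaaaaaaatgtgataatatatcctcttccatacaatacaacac

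The GA2OX2 window held 1 ACGTG core, 136 bases before the start. The GA2OX6 window held the RY core once on each strand, at 189 and 187 bases before the start, in overlapping positions. The GA2OX3 window held none of the 4 motifs. Over the 7 members, ACGTG was found in 4 windows (also GA2OX4, GA2OX7 and GA2OX8), the RY core in 2 (GA2OX6 and GA2OX4), the G-box in 1 (GA2OX4) and the CArG form in 0. Among 32546 windows of the same length before nuclear genes, 24.5% held ACGTG, 10.6% the RY core, 6.49% the G-box and 20.7% the CArG form.

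Imbibition in Col-0 asks which members change during the first hours of water uptake in wild-type seeds. GA2OX2 stood at 9.45, 12.3 and 10.6 CPM in the 3 dry Col-0 libraries and at 2.72, 3.56 and 2.46 CPM in the 3 imbibed ones. Every imbibed library was below every dry one, as for 37.6% of tested genes, and the fall was 1.89 ± 0.186 on the log2 scale (SE), or 3.70-fold (edgeR adjusted p = 9.83e-09). GA2OX6 stood at 10.8, 6.17 and 7.58 CPM dry and at 0.741, 0.720 and 0.739 CPM imbibed, the latter from 18 counts in each library. The dry libraries differed among themselves by more than the imbibed ones. The equal imbibed counts understate the uncertainty, as the pooled 95% counting interval was 0.551 to 0.956 CPM. The groups did not overlap, and GA2OX6 fell by 3.47 ± 0.309 (11.1-fold, edgeR adjusted p = 1.13e-09). GA2OX3 was counted 1, 0 and 3 times in dry Col-0 libraries and 14, 12 and 25 times in imbibed ones, or 0.576, 0.480 and 1.03 CPM.

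The GA2OX3 groups did not overlap either, with imbibed above dry as for 41.1% of tested genes. Pooled over libraries, its level was 8.14 times higher in imbibed Col-0 seeds (95% interval 2.99 to 31.0, counting error only), and the fitted change was 2.94 ± 1.02 (adjusted p = 0.00395). It was 4.2 without dry replicate 3, which held 3 of the 4 dry counts, and 2.34 without dry replicate 2, with the call kept. All 3 tested members thus passed the threshold in Col-0, 2 lower and 1 higher, where 74.9% of the 17758 tested genes passed (38.8% higher and 36.1% lower). A larger absolute change than that of GA2OX6 was seen in 4.29% of tested genes, than that of GA2OX3 in 6.34% and than that of GA2OX2 in 16.0%. With scaling to library totals, which moved the median log2 change of all tested genes from 0.064 to 0.659 in Col-0, the falls of GA2OX2 and GA2OX6 were 1.30 and 2.86 and the rise of GA2OX3 was 3.50, and all 3 calls were kept.

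**Figure D1:**
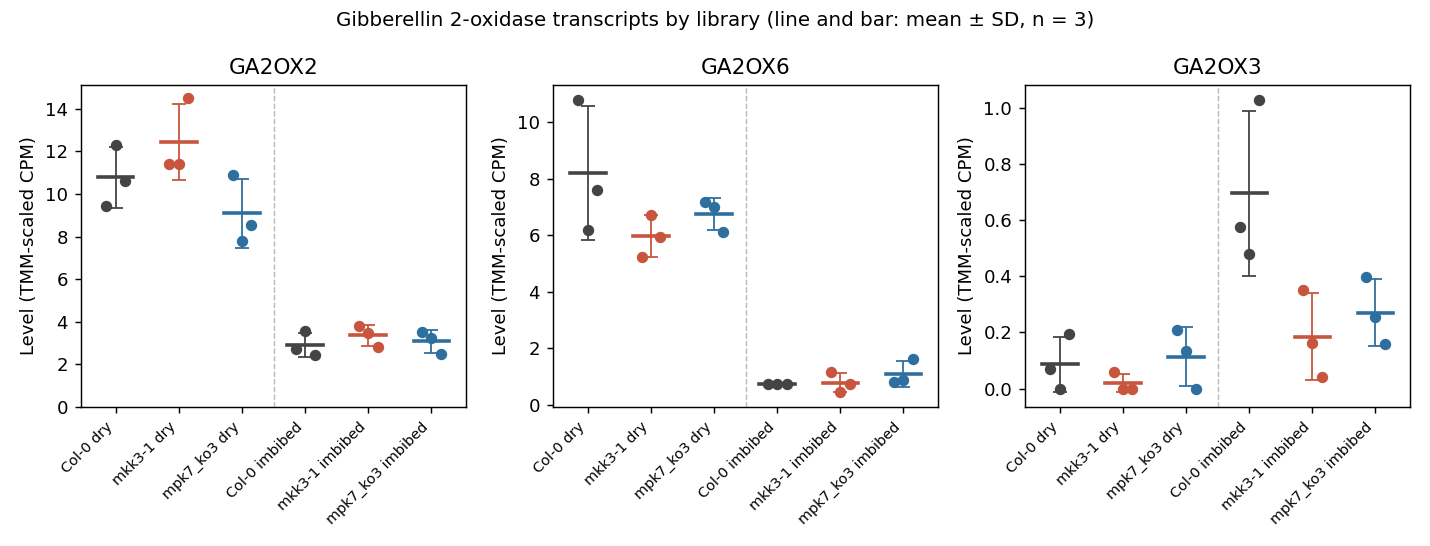
Level of GA2OX2, GA2OX6 and GA2OX3 (vertical axis, CPM scaled with TMM factors) in each library of the 6 groups (horizontal axis), with points for libraries, lines for means and bars for ± SD (n = 3). GA2OX2 and GA2OX6 are lower in every imbibed library than in every dry one, and GA2OX3 is highest in the 3 imbibed Col-0 libraries (0.480 to 1.03 CPM).

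The same falls were seen in seeds of both mutants. In mkk3-1, GA2OX2 stood at 11.4, 11.4 and 14.5 CPM dry and at 3.80, 3.46 and 2.83 CPM imbibed, a fall of 1.89 ± 0.181 (log2, SE, edgeR adjusted p = 7.47e-09). GA2OX6 stood at 5.23, 6.70 and 5.95 CPM dry and at 1.14, 0.448 and 0.739 CPM imbibed, a fall of 2.93 ± 0.307 (adjusted p = 1.76e-08). Neither gene's groups overlapped (37.1% of tested genes were lower in this way). GA2OX3 was counted 1, 0 and 0 times dry and 9, 4 and 1 times imbibed in mkk3-1, so its groups overlapped. The pooled ratio was 9.47, with a 95% counting interval of 1.44 to 401. The fitted rise of GA2OX3 was 2.90 ± 1.87, on 15 counts in all. It only just passed the edgeR test (adjusted p = 0.0482), while its fitted 95% interval, -0.99 to 6.78, included no change. That call was lost in 14 of 25 alternatives, among them those without mkk3-1 imbibed replicate 1 (2.06, adjusted p = 0.216) or replicate 2 (2.98, 0.0623) and without mkk3-1 dry replicate 2 (2.48, 0.124) or replicate 3 (2.42, 0.135). Without mkk3-1 dry replicate 1, which held the only dry count, the call was kept. In mkk3-1, 3 of 3 tested members passed, where 73.3% of all tested genes did (37.5% higher and 35.8% lower).

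In mpk7_ko3, GA2OX2 stood at 10.9, 7.79 and 8.55 CPM dry and at 3.54, 3.24 and 2.49 CPM imbibed, and fell by 1.55 ± 0.187 (log2, SE, edgeR adjusted p = 2.21e-07). The fall was 0.99 with scaling to library totals, still past the threshold. GA2OX6 stood at 7.17, 7.0 and 6.10 CPM dry and at 0.796, 0.853 and 1.62 CPM imbibed, and fell by 2.62 ± 0.288 (adjusted p = 4.68e-08). The highest imbibed value, from 41 counts, belonged to replicate 3, the library distant on the second principal component; without that replicate in both states the fall was 3.09. Groups of both genes were free of overlap, as for 34.2% of tested genes that were lower. GA2OX3 was counted 3, 2 and 0 times dry and 10, 6 and 4 times imbibed, a fitted difference of 1.27 ± 0.987 that did not pass (adjusted p = 0.216) and a pooled ratio of 2.5 (95% counting interval 0.912 to 8.53). In this genotype 2 of 3 tested members passed, where 72.5% of all tested genes did (37.6% higher and 34.9% lower).

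Whether the change of a member on imbibition differed between genotypes was tested directly as an interaction. The 2 interaction comparisons called 0 of 3 members each in edgeR, with 0 at an unadjusted p under 0.05 and 0 in DESeq2, where 0.124% (mkk3-1) and 0.00563% (mpk7_ko3) of tested genes passed. For GA2OX2 the mkk3-1 response differed from that of Col-0 by 0.00 ± 0.259 on the log2 scale (95% interval -0.54 to 0.54). The GA2OX6 response in mpk7_ko3 differed by 0.85 ± 0.422 (interval -0.03 to 1.73, adjusted p = 0.676), the smaller fall being in the mutant; without imbibed replicate 3 of mpk7_ko3 it was 0.44, and without that replicate in both states 0.37. GA2OX3 gave intervals of -4.47 to 4.39 for mkk3-1 and -4.62 to 1.28 for mpk7_ko3, too wide to tell a lost response from a kept one. These comparisons share the Col-0 libraries. In 7 of the 11 comparisons, all those within a state and the mkk3-1 interaction, DESeq2 gave GA2OX3 no adjusted p, so its counts there rest on the other 2 members.

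Mutant and wild-type seeds were then compared within each state, the comparison that asks whether loss of either kinase moves these transcripts. In dry seeds 0 of 3 tested members passed in mkk3-1 (2.08% of all tested genes passed) and 0 of 3 in mpk7_ko3 (2.76%), with 0 at an unadjusted p under 0.05 in either and 0 in DESeq2. The dry difference from Col-0 in GA2OX2 was 0.21 ± 0.170 in mkk3-1 (95% interval -0.15 to 0.56) and -0.25 ± 0.174 in mpk7_ko3 (-0.62 to 0.11). In GA2OX6 it was -0.46 ± 0.246 (-0.97 to 0.06) and -0.27 ± 0.245 (-0.79 to 0.24), with overlapping libraries in each case. Between the mutants, dry GA2OX2 was 0.46 ± 0.172 higher in mkk3-1 than in mpk7_ko3 without overlap of the groups, at an unadjusted p of 0.0146 and an adjusted p of 0.176 (edgeR). It was the 1 member under 0.05 unadjusted in that comparison; edgeR and DESeq2 called 0, where 1.21% of tested genes passed in edgeR and 8.38% were higher without overlap.

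In imbibed seeds the member farthest from Col-0 was GA2OX3. Its 3 Col-0 libraries (14, 12 and 25 counts) all exceeded the 3 libraries of mkk3-1 (9, 4 and 1) and the 3 of mpk7_ko3 (10, 6 and 4). The pooled level in Col-0 was 3.68 times that in mkk3-1 (95% counting interval 2.01 to 7.20) and 2.56 times that in mpk7_ko3 (1.5 to 4.53). Against the spread between replicates the differences were -1.86 ± 0.704 (log2, SE, edgeR unadjusted p = 0.0119, adjusted p = 0.0996) and -1.34 ± 0.656 (0.0489 and 0.208), and neither passed. Fitted on only the 6 libraries compared, the mkk3-1 difference was -1.84 with an adjusted p of 0.0417; over its 25 alternatives the adjusted p ran from 0.0417 to 0.354. Between the 2 mutants GA2OX3 differed by -0.52 ± 0.767 (interval -2.12 to 1.08).

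After imbibition, neither GA2OX2 nor GA2OX6 passed the test against Col-0 in either mutant. GA2OX2 differed by 0.21 ± 0.196 in mkk3-1 (95% interval -0.20 to 0.62) and by 0.08 ± 0.197 in mpk7_ko3 (-0.33 to 0.49). GA2OX6 differed by 0.08 ± 0.359 in mkk3-1 (-0.66 to 0.83) and by 0.57 ± 0.343 in mpk7_ko3 (-0.14 to 1.29, edgeR adjusted p = 0.329). The latter was 0.17 without imbibed replicate 3 of mpk7_ko3, which held 41 of the 81 counts. The mpk7_ko3 libraries of GA2OX6 (20, 20 and 41 counts) were all above the Col-0 ones (18 each), a separation that 15.1% of tested genes showed in the same direction. For GA2OX3, 18.1% of tested genes were lower without overlap in mkk3-1 and 15.9% in mpk7_ko3. Thus 0 of 3 members passed in imbibed mkk3-1, where 7.95% of tested genes did, and 0 of 3 in mpk7_ko3, where 9.84% did; 1 member (GA2OX3) was under 0.05 unadjusted in each and DESeq2 called 0. Between imbibed mkk3-1 and mpk7_ko3, edgeR and DESeq2 called 0 of 3 and 0 were under 0.05 unadjusted (0.338% of tested genes passed).

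**Figure D2:**
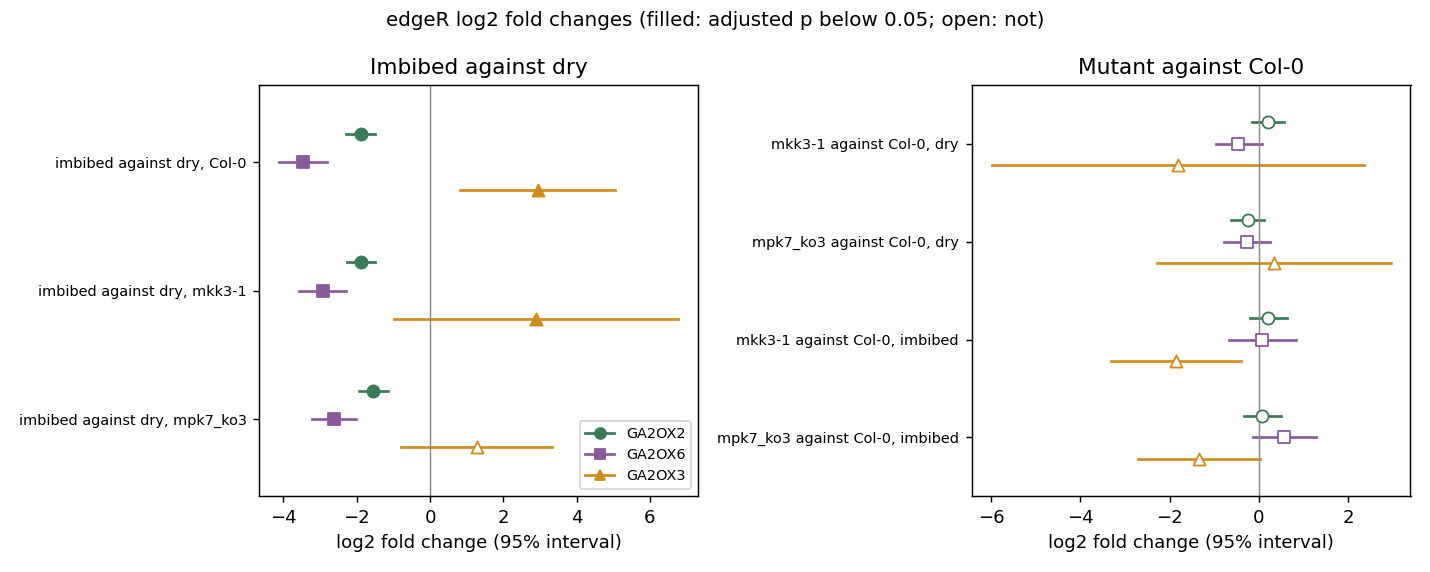
Fitted log2 fold changes (horizontal axis) of GA2OX2, GA2OX6 and GA2OX3 for imbibed against dry seeds of each genotype and for the mutants against Col-0, dry and imbibed (vertical axis); bars are 95% intervals and filled symbols passed an adjusted p of 0.05. All 8 filled symbols belong to imbibition, and the intervals of GA2OX3 are the widest in each comparison. Its interval for mkk3-1 imbibition includes no change although the symbol is filled.

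The other 4 members gave almost no reads. GA2OX4 was counted 6 times in all, with 3 counts in dry mkk3-1 seeds (2 in replicate 1 and 1 in replicate 3) and 3 counts in 1 library of imbibed Col-0 seeds (replicate 2). GA2OX8 was counted 3 times, with 2 counts in replicate 3 of dry Col-0 and 1 in replicate 3 of imbibed mkk3-1. GA2OX1 and GA2OX7 were at 0 in 18 of 18 libraries, which allows up to 3 counts, or 0.117 to 0.207 CPM in a single library and 0.0082 CPM over all of them (counting error only). At this depth a transcript below those limits could have been missed. The 4 genes failed the low-count filter; tested without it, neither GA2OX4 nor GA2OX8 passed in any comparison (the lowest edgeR adjusted p was 0.169, for GA2OX4 in mkk3-1 imbibition).

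Per kilobase of exon, so that genes can be set beside each other, dry Col-0 seeds held 5.47 ± 1.60 CPM per kb of GA2OX6 and 4.53 ± 0.608 of GA2OX2 (SD, n = 3), a difference within the spread of the libraries. GA2OX3 followed at 0.0671 ± 0.0753 and the remaining members were lower still. In imbibed Col-0 seeds the order was GA2OX2 at 1.22 ± 0.241, then GA2OX3 at 0.535 ± 0.225 and GA2OX6 at 0.490 ± 0.00784, the last 2 not separated by their spread. The SD of GA2OX6 there, from equal counts of 18, understates its uncertainty. In both mutants GA2OX3 was the lowest of the 3 after imbibition, at 0.143 ± 0.121 in mkk3-1 and 0.209 ± 0.0930 in mpk7_ko3, below GA2OX6 at 0.517 ± 0.230 and 0.728 ± 0.308. Even the more abundant members were modest transcripts: of the tested genes, 40.1% had a lower level per kb than GA2OX2 in dry Col-0 seeds and 17.9% in imbibed ones, and for GA2OX6 these shares were 43.9% and 9.69%. These levels divide by merged exon length, 2382 of the 2588 bases of GA2OX2 and 1497 of the 2852 bases of GA2OX6. Bases that 1 of a gene's 2 transcripts lacks lower its level per kb. The share of each transcript was not measured, so the order of the 2 genes in dry seeds is uncertain. In CPM, dry Col-0 seeds held 10.8 ± 1.45 of GA2OX2 and 8.19 ± 2.39 of GA2OX6.

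Summed over the 7 members, the level ran from 7.67 to 11.3 CPM per kb in the 9 dry libraries (median 9.29) and from 1.74 to 2.62 in the 9 imbibed ones (median 2.25), without overlap. The make-up of the sum, which rests on the merged exon lengths, moved as well. GA2OX6 made a median of 50.3% of it in dry and 23.8% in imbibed libraries, GA2OX2 48.0% and 61.2%, and GA2OX3 0.469% and 10.4%. In imbibed Col-0 libraries GA2OX3 reached 15.1% to 34.1% of the sum, against 1.82% to 10.4% in mkk3-1 and 5.42% to 13.2% in mpk7_ko3. The ratio of GA2OX2 to GA2OX6 per kb, which no scaling of libraries can move, was 0.549 to 1.53 in dry libraries. It was 2.09 to 4.86 in 8 of the 9 imbibed ones, and the exception, replicate 3 of imbibed mpk7_ko3, was at 0.966.

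**Figure D3:**
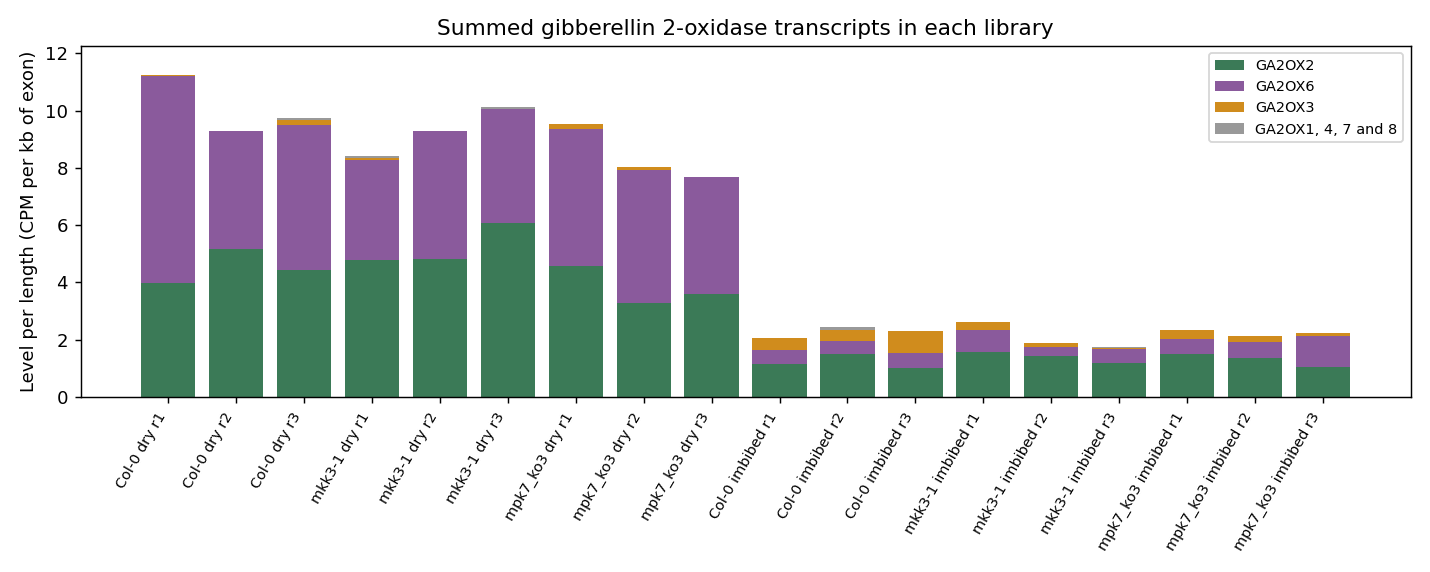
Summed level of the gibberellin 2-oxidase genes in each of the 18 libraries (horizontal axis), in CPM per kilobase of exon (vertical axis), with stacked segments for the genes. Dry libraries reach 7.67 to 11.3 and are made of GA2OX2 and GA2OX6 in similar amounts per kb of merged exon. Imbibed ones reach 1.74 to 2.62, with the largest GA2OX3 segments in Col-0.

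Within a state, no relation between GA2OX2 and GA2OX6 from library to library passed a test. Across the 9 dry libraries Pearson's r was -0.369 (permutation p = 0.343, adjusted 0.491) and Spearman's rho -0.467 (p = 0.214, adjusted 0.428), and across the 9 imbibed ones r was -0.268 (p = 0.491, adjusted 0.491) and rho -0.083 (p = 0.849, adjusted 0.849), with adjustment over these 2 relations. Leaving out the 2 libraries farthest from the median of GA2OX2 gave r of -0.372 dry and 0.190 imbibed. Genotypes were pooled without removing their means, so differences between genotypes enter these values. Genes with the pattern most like that of each member over all 18 libraries were named by Pearson's r of log2 CPM, a description that the dry and imbibed states largely set. For GA2OX6 they were UBQ11, a polyubiquitin gene (r = 0.992), AT2G28400 and AT1G32710 (0.989 each), and for GA2OX2 they were AT4G21500 (0.982), AT1G73380 and AT5G46170 (0.981 each). An r above 0.9 was reached with GA2OX6 by 19.8% of tested genes and with GA2OX2 by 17.8%. For GA2OX3 only RDR2, an RNA-dependent RNA polymerase gene, exceeded 0.9 (r = 0.922), followed by AT3G04650 (0.884) and SAMC1, a carrier of S-adenosylmethionine (0.879).

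Of 14 biosynthesis genes, 10 were tested, and 6 rose and 1 fell in Col-0 (edgeR, adjusted p under 0.05), 5 rose and 2 fell in mkk3-1, and 6 rose and 1 fell in mpk7_ko3; their median log2 change was 0.90, 0.49 and 1.36, against 0.064, 0.048 and 0.059 over all tested genes. Of all tested genes, 38.8% rose and 36.1% fell in Col-0, 37.5% and 35.8% in mkk3-1, and 37.6% and 34.9% in mpk7_ko3. Summed per kb over the 5 GA20OX genes, levels were 3.04 to 7.62 CPM per kb in dry libraries and 41.6 to 67.2 in imbibed ones, with GA20OX3 up by 3.25 ± 0.146 in Col-0 (adjusted p = 5.27e-14). Over the 4 GA3OX genes, which catalyse the last step to active hormone, the sum was 0.00 to 0.192 dry and 1.45 to 5.62 imbibed. In every dry library the summed gibberellin 2-oxidases thus exceeded the summed GA3OX genes, whereas in imbibed Col-0 libraries the GA3OX sum (4.17 to 5.62) exceeded that of the gibberellin 2-oxidases (2.08 to 2.44). In imbibed mkk3-1 the GA3OX sum was 1.45 to 2.18, beside 1.74 to 2.62 for the gibberellin 2-oxidases. In imbibed mpk7_ko3 the GA3OX sum was 4.17, 3.49 and 1.48 in the 3 libraries, beside 2.33, 2.13 and 2.25, so it was the higher in replicates 1 and 2 and the lower in replicate 3. These sums also divide by merged exon length, 2382 bases for GA2OX2, which lowers a gene with unlike transcripts. The order of the gibberellin 2-oxidase and GA3OX sums in imbibed seeds is therefore uncertain.

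**Figure D4:**
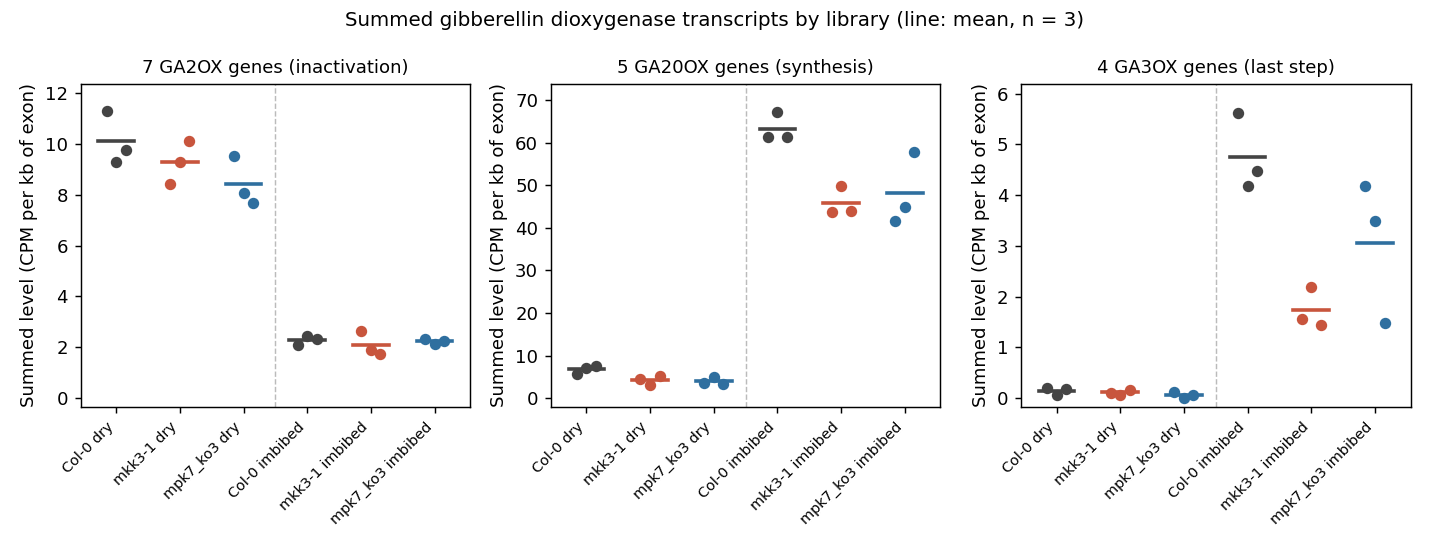
Summed levels of the 7 gibberellin 2-oxidase, 5 GA20OX and 4 GA3OX genes (vertical axes, CPM per kilobase of exon, a separate scale in each panel) by group (horizontal axes), with points for libraries and lines for means (n = 3). The first family is lower and the other two are higher in every imbibed library than in every dry one.

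Among other routes that inactivate gibberellin, 1 of 4 listed genes was tested, CYP714A1, a cytochrome P450 gene. It was far more abundant per length than any gibberellin 2-oxidase, at 58.7 ± 11.5 CPM per kb in dry and 39.3 ± 3.72 in imbibed Col-0 seeds (SD, n = 3). It fell on imbibition in Col-0 (by 0.58 ± 0.134, edgeR adjusted p = 0.000604) and mkk3-1 (by 0.43 ± 0.135, 0.00676) and did not pass in mpk7_ko3. Of 10 signalling genes 9 were tested, and 5 rose and 3 fell in each genotype. Of the DELLA repressor genes, RGA1 rose by 2.80 ± 0.114, RGL2 by 2.11 ± 0.126 and GAI by 1.36 ± 0.0997 in Col-0, and RGL3 fell by 0.93 ± 0.124. RGL1 rose by 3.89 ± 1.06, but from 3 counts over the dry Col-0 libraries to 1.03 ± 0.182 CPM. All 12 listed regulators of gibberellin metabolism were tested, with 5 up and 5 down in Col-0; among all tested genes 38.8% were up and 36.1% down. Between mutants and Col-0 no gibberellin 2-oxidase passed, and 3 of 10 tested biosynthesis genes were lower in imbibed mkk3-1. These were GA3OX2 (by 2.37 ± 0.429, edgeR adjusted p = 0.00332), GA20OX2 (by 1.44 ± 0.367, 0.0180) and GA20OX3 (by 0.40 ± 0.123, 0.0495). GA20OX3 was the 1 biosynthesis gene called, and lower, in imbibed mpk7_ko3 (by 0.39 ± 0.123, 0.0473), dry mkk3-1 (by 0.75 ± 0.178, 0.0282) and dry mpk7_ko3 (by 0.88 ± 0.184, 0.0100). Of all tested genes, 7.95% passed in imbibed mkk3-1, 9.84% in imbibed mpk7_ko3, 2.08% in dry mkk3-1 and 2.76% in dry mpk7_ko3. Signalling genes were called too, 1 higher and 3 lower in imbibed mkk3-1 and 1 and 4 in imbibed mpk7_ko3. In dry seeds 3 were lower in mkk3-1 and 2 in mpk7_ko3. Of the regulators, 3 were higher in imbibed mkk3-1 and 4 in imbibed mpk7_ko3. When dry, 1 was lower in mkk3-1, and 2 were higher and 1 lower in mpk7_ko3.

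These were whole seeds, so fewer cells of a type and less RNA per cell cannot be told apart. Markers of the endosperm (6 listed, 3 tested, IKU2 without a read) summed to 11400 to 24100 CPM in dry and 2980 to 9030 CPM in imbibed libraries. In Col-0 2 of the 3 tested fell, where 36.1% of all tested genes did. AGL62, among the tested ones, was at 1.70 ± 0.492 dry and 1.33 ± 0.273 CPM imbibed in Col-0 (SD, n = 3). The endosperm sum was 2980 to 3350 CPM in imbibed mkk3-1 and 5100 to 6950 CPM in imbibed Col-0. GA2OX2 and GA2OX6 overlapped between those groups, and GA2OX3 was lower in mkk3-1 without overlap. That sum is nearly all EPR1 (3110 ± 208 against 6030 ± 921 CPM, SD, n = 3; log2 change -0.95, edgeR adjusted p = 0.000449). The other 2 tested markers, NCED6 (0.37 higher, 0.646) and AGL62 (0.27 higher, 0.661), did not pass. Seed coat markers (7 listed, 2 tested, each with a read) summed to 0.919 to 4.34 CPM dry and 0.274 to 1.22 CPM imbibed, and green tissue markers (5 listed, 3 tested) to 22.0 to 44.0 and 65.7 to 141 CPM. The green sum is mostly RBCS1A (28.6 ± 2.76 dry and 108 ± 10.4 CPM imbibed in Col-0, SD, n = 3). Near the floor, CAB2 (0.0214 dry and 0.0133 CPM imbibed) and LHCB2.1 (0.0821 and 0.0822 CPM) did not move with it in Col-0. The part of these shifts in the changes of the gibberellin 2-oxidases was not tested.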

How the data were processed

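The deposited table holds raw counts of reads per gene for 18 libraries, made by the authors from paired NovaSeq reads. Per the submitters' processing notes, the genome was TAIR10 and the tools included HISAT2 2.1.0, fastp 0.20.0, DESeq2 1.34.0 and featureCounts 2.0.1. How strand, pairs and multiply mapped reads were counted is not given in the sources used here. Filtering with filterByExpr (minimum count 10) left 17758 of 32833 genes. edgeR 4.0.16 in R 4.3.3 fitted a mean per group over all 18 libraries with TMM factors and its quasi-likelihood test. P-values were two-sided and Benjamini-Hochberg adjusted over all tested genes at 0.05, in 11 comparisons. Standard errors and 95% intervals are Wald values from the fitted model with its quasi-dispersion. CPM used TMM factors; levels per kb divided CPM by the deposited exon length. Counting intervals of pooled ratios are exact. Log2 CPM carried a prior count of 2. Permutation tests were run only for the correlations of GA2OX2 with GA2OX6 within a state.

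Symbols came from RefSeq's TAIR10.1 annotation, where 32548 nuclear loci matched and 32532 had the same span and strand. The scripts were tested on simulated counts. Members, lists and motifs were chosen with earlier results of these data known. Named beyond the members were MKK3, MPK7, some called genes of the pathway lists, some marker genes, and the 3 genes most like each tested member. The genes named from a pathway list were not always those with the largest change. Alternatives were DESeq2 1.42.0, other scalings, no filter, only the libraries compared, the replicate block, and libraries left out; their effect is given at the end. Protein sequences were not used here.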

Additional observations from a re-analysis of the deposited data

How the results depend on the processing

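Every comparison was recomputed under up to 26 alternatives, 18 of them without 1 library each. Of 845 recomputed member changes, 830 kept their side of the threshold, 14 were no longer called and 1 was newly called. No called change of a member changed sign. In 6 cases uncalled ones took both signs over the alternatives. For GA2OX2 these were the mkk3-1 interaction (-0.11 to 0.17), imbibed mpk7_ko3 against Col-0 (-0.03 to 0.25) and imbibed mkk3-1 against mpk7_ko3 (-0.01 to 0.24). For GA2OX6 it was imbibed mkk3-1 against Col-0 (-0.30 to 0.36). For GA2OX3 these were dry mpk7_ko3 against Col-0 (-0.39 to 1.6) and the mkk3-1 interaction (-1.3 to 2.06). GA2OX2 and GA2OX6 were called lower on imbibition in all 26 alternatives in each genotype, with falls of 0.99 to 2.06 and 2.06 to 3.64 on the log2 scale. GA2OX3 in Col-0 was also called in all 26 (2.34 to 4.2). The call of GA2OX3 in mkk3-1 was lost without the low-count filter (2.91, adjusted p = 0.0560), with the replicate block (2.88, 0.0535) and in 12 of the 18 fits without 1 library (2.06 to 4.98 over the 18). The highest value leaves dry mkk3-1 without a read and depends on the prior count; the cause of the other losses was not tested. Fitting only the 6 libraries compared called GA2OX3 lower in imbibed mkk3-1 (-1.84) and so moved the count of called members from 0 to 1. DESeq2 gave GA2OX3 no adjusted p in 7 of 11 comparisons, this one included. The block shares replicate numbers across genotypes, so it does not test a pairing of dry and imbibed libraries within a genotype. Over 15 pairs of groups, 0 had every same-numbered pair of libraries correlated above 0.1 (r from -0.154 to 0.278). Within a genotype, 15 of 18 libraries correlated best with their own number in the other state, and such a pairing was not modelled. The block changed no other member call.

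Scaling to library totals raised the share of higher calls on imbibition from 51.8% to 75.9% in Col-0, 51.1% to 75.2% in mkk3-1 and 51.9% to 75.8% in mpk7_ko3, and the median change of all genes by similar steps. Counts of all genes called moved by over 1.5 times in 72 of 286 recomputations, none in imbibition. Their ranges were 130 to 656 (370 reported) for dry and 756 to 2887 (1412) for imbibed mkk3-1 against Col-0, 73 to 775 (491) and 887 to 2142 (1748) for mpk7_ko3, 29 to 1095 (215) and 18 to 454 (60) between mutants, and 5 to 161 (22) and 1 to 58 (1) for the interactions of mkk3-1 and mpk7_ko3. Likeness of GA2OX2 to AT5G46170 was 0.855 with library totals. Depth limits the 4 members with 0 to 6 counts and GA2OX3, with 95 counts in all.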
